A study of Mus musculus with 6 samples.

Results

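Keratin-associated proteins (KAPs) fill the space between the keratin filaments of the hair shaft, and their genes made up 59 of the 56941 genes in the count table. A gene was taken as a member where its symbol in the table began with Krtap, and Gm10229 and 4930553J12Rik were added. The GENCODE M39 annotation of the mouse genome (GRCm39) names these additions Krtap6-3 and Krtap15-1, and it gives the name Krtap20-1 to the gene that the table calls Krtap6-3. The other 56 members carried the same symbol in both sources, and the table's symbols are used here. The annotation names a further 54 genes Krtap that the table lists under Gm or Rik symbols or with no symbol, and these are described apart from the members.

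KAPs are made late in the hair follicle, in the cells of the hair cortex and cuticle that move up from the matrix and harden into the shaft. They are small proteins that crosslink hair keratins, chiefly through disulfide bonds between cysteines. By composition they fall into high-glycine-tyrosine, high-sulfur and ultra-high-sulfur families. Hair follicle stem cells (HFSCs) of the bulge are not known for making them.

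The composition that names the classes is visible in the coding strands of GRCm39. Stretches from the first coding base of 4 members are given as examples, and the codon counts under the sequences are over the codons shown. The shares given for classes and for other members further below are over the whole coding sequence. In the high-glycine-tyrosine gene Krtap6-5 at chr16:88844498-88844731 (-) and in Krtap16-3 at chr16:88759472-88759711 (-), capitals mark glycine and tyrosine codons. In the ultra-high-sulfur gene Krtap9-3 at chr11:99488641-99488880 (-) and in Krtap28-13 at chr1:83038717-83038956 (+), capitals mark cysteine codons.
Krtap6-5: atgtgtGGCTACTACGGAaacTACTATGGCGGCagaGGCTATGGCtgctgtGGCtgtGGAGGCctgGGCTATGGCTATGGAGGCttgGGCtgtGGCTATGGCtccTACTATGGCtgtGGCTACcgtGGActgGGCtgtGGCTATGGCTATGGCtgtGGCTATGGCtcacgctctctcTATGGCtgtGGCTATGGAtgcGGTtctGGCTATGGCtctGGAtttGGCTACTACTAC
Krtap16-3: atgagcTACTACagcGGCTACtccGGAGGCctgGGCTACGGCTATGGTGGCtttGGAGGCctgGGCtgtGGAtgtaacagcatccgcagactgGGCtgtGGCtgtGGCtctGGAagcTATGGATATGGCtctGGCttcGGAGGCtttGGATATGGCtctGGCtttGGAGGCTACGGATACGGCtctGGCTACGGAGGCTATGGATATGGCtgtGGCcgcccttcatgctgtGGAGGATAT
Krtap9-3: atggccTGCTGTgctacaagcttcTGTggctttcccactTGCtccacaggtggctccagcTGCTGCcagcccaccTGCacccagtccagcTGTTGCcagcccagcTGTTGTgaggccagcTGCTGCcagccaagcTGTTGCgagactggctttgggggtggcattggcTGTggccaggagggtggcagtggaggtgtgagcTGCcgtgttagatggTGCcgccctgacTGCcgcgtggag
Krtap28-13: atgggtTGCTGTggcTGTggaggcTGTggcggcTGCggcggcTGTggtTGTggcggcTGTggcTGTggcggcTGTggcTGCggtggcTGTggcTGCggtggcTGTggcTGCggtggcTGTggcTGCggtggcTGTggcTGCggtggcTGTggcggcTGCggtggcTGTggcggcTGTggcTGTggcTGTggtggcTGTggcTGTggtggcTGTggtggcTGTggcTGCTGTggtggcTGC
Glycine and tyrosine took 53 of the 78 codons of Krtap6-5 (67.9%) and 49 of the 80 codons shown of Krtap16-3. Cysteine took 19 of the 80 codons shown of Krtap9-3 and 32 of the 80 shown of Krtap28-13.

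By the family number in the current names, 17 members were high-glycine-tyrosine genes (families 6, 7, 8, 19, 20, 21 and 22), 17 were high-sulfur genes, 20 were ultra-high-sulfur genes (families 4, 5, 9, 10, 12 and 17) and 5 belonged to families 28, 29 and 31, which are kept apart as other. The 58 members with an annotated coding sequence had between 57 and 502 codons. Glycine and tyrosine codons ranged from 29.9 to 70.1% in the high-glycine-tyrosine class with a median of 63.7%, and Krtap7-1 held the lowest share. Cysteine codons ranged from 25.4 to 41.5% in the ultra-high-sulfur class with a median of 37.2%. Krtap16-3 stood apart from its high-sulfur number with 59.3% glycine and tyrosine codons and 8.14% cysteine codons. Krtap28-10 and Krtap28-13 were rich in both, with 42.9 and 42.8% cysteine and 38.7 and 42% glycine and tyrosine codons. Krtap19-9a is annotated as a processed pseudogene and has no coding sequence in GENCODE M39.

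**Figure D1:**
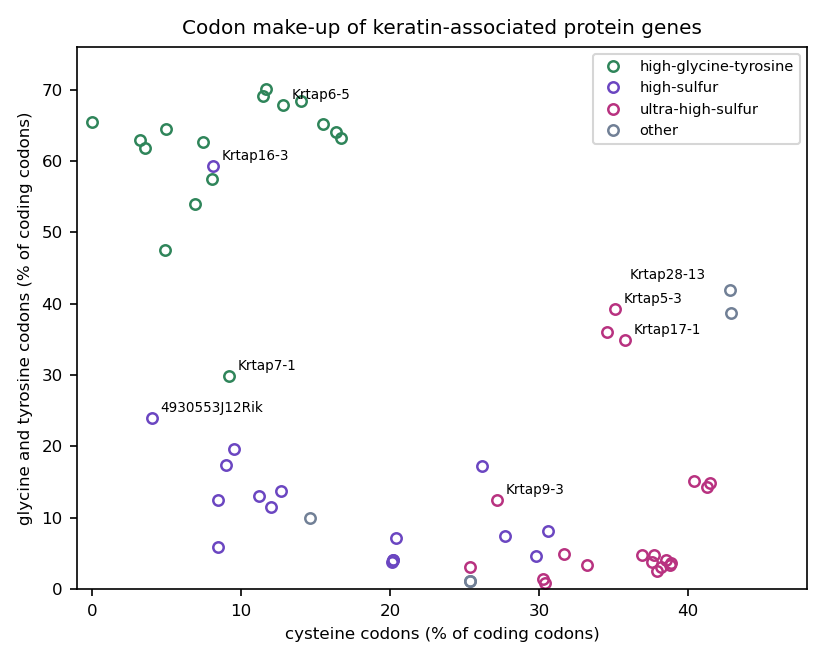
Share of cysteine codons (x axis, % of coding codons) against the share of glycine and tyrosine codons (y axis, %) for the 58 members with a coding sequence, coloured by class. Krtap16-3 at 8.14% and 59.3% lies among the high-glycine-tyrosine genes, and Krtap28-13 at 42.8% and 42% lies apart from both main groups.

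The members were measured by total RNA sequencing of HFSCs, sorted by FACS as CD34+ and α6-integrin+ cells from the dorsal skin of female mice of strain B6;129S4-Dab2tm1Cpr/J at PD68. WT and Dab2-cKO mice both carried Dab2 fl/fl alleles and both received tamoxifen at 75 mg/kg on 5 days, so that the groups share the floxed gene and the drug. The Dab2-cKO mice also carried the K14CreER transgene, in which the K14 promoter drives a Cre that tamoxifen activates in basal keratinocytes of the epidermis and the hair follicle, and WT mice lacked it. By the paper's histology, both genotypes were in the second telogen, a resting phase of the hair cycle, at PD68. There were 3 biological replicates of each genotype, and the comparison asks how the HFSCs differ when Dab2 is deleted. The columns of the second group are headed FL-FL and were read as Dab2-cKO through the title of the series.

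The targeted gene went against this label. Dab2 (ENSMUSG00000022150), an endocytic adaptor protein, had 304, 368 and 362 counts in WT and 1504, 1130 and 1259 in the libraries labelled Dab2-cKO. It was higher in the latter by 2.08 on the log2 scale (SE 0.08, adjusted p = 3.04e-34 by the edgeR quasi-likelihood test). Counts pooled over the exons of a gene do not show a deleted exon separately, and why Dab2 was higher was not tested. The groups are named by their labels, and every direction below rests on the labels.

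The total per library was 7040032 to 9518564 counts in WT and 9374373 to 11696457 in the libraries labelled Dab2-cKO. Mitochondrial genes took 13.5% ± 0.807 (SD, n = 3) of the counts in WT and 19.6% ± 0.605 (SD, n = 3) in the other group, and ribosomal RNA genes took 16.2% ± 0.837 and 23.1% ± 0.977. Their part in the differences below was not tested. The sorting markers Cd34 and Itga6 were present in both groups and were higher in the libraries labelled Dab2-cKO, by 1.80 (SE 0.08) and 0.55 (SE 0.07) on the log2 scale. Intervals and limits from counts cover counting error only.

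KAP transcripts were far lower in the libraries labelled Dab2-cKO, in every class and on all 5 chromosomes that hold the genes. All members together had 23616, 32994 and 32724 counts in the WT libraries and 459, 424 and 410 counts in those labelled Dab2-cKO. As a share of all counts this was 0.335, 0.348 and 0.344% in WT and 0.00392, 0.00452 and 0.00413% in the other group, an 81.7-fold difference of the means. Shares of the 3 libraries of a genotype lay close to each other, and the groups were far apart. In bulk RNA, fewer cells of a type and less RNA per cell cannot be told apart.

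**Figure D2:**
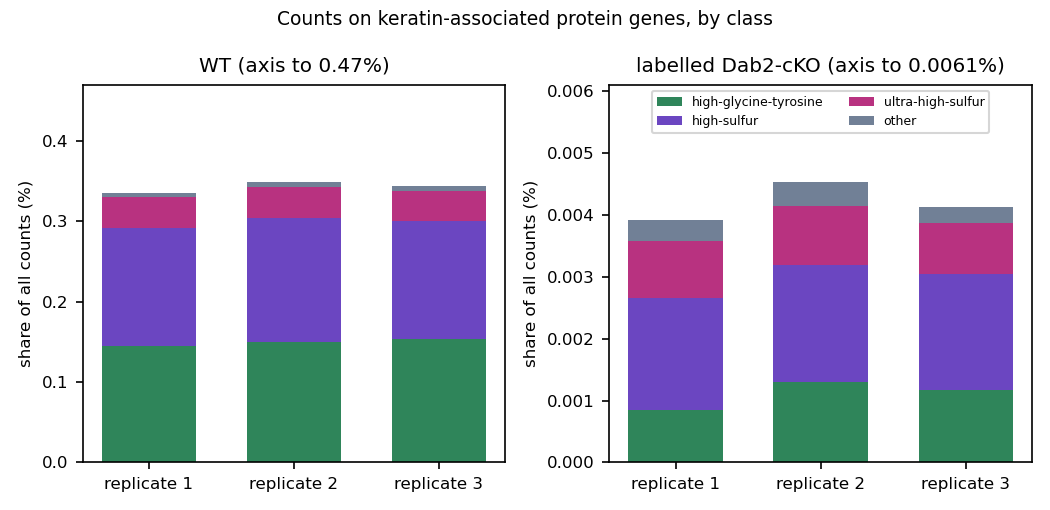
Share of all counts on members (y axis, %) in each library, stacked by class, for WT (left) and the libraries labelled Dab2-cKO (right). The axes differ because the totals were 0.335 to 0.348% in WT and 0.00392 to 0.00452% in the other group.

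For single genes, counts were normalized by the TMM library sizes and tested for all genes by edgeR, and a gene was called where its Benjamini-Hochberg adjusted p was under 0.05. Of the 59 members, 57 passed the filter on low counts and 57 were called lower, against 11.5% of the 32149 genes tested. None was called higher, against 16.8% of all genes tested, and with every fold change under 0 the count at an unadjusted p under 0.05 was also 0, as was that of DESeq2. Of the 57, 53 passed the filter through the WT libraries alone, which favours a call of lower, so that their count is a description. Only 4 members passed it in the libraries labelled Dab2-cKO, namely Krtap3-2, Krtap6-2, Krtap13-1 and Krtap16-1, with log2 fold changes of -3.66, -4.94, -3.84 and -5.16, and all 4 are named for this reason after their values were seen.

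In normalized counts, every WT library lay above every library labelled Dab2-cKO for 58 members, against 17.7% of the genes tested. The exception was Krtap13, with 13, 11 and 9 counts against 3, 6 and 7, and it was not tested because its counts were low. Krtap20-2 was also not tested, with 7, 23 and 13 counts against 8, 4 and 7, and its raw counts overlapped between the groups. The median log2 fold change of the members tested was -5.47, beside -0.02 over all genes tested. The fold change was under -3 for 52 members, a size that 0.535% of all genes tested reached together with a call. Members took 38 of the 100 most negative fold changes in the table and 56 of the 500 most negative. Most members passed the filter through the WT libraries alone, which favours a negative fold change, so that these counts are a description. The 0.535% includes the members themselves.

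To read the low values, levels per kb of exon were set against those of 1526 protein-coding chemosensory receptor genes, taken as a background of low counts. As means over the libraries of both groups, the receptors had a median of 4.94 normalized counts per kb and a 95th percentile of 11.8. In WT, all 59 members were above this percentile. In the libraries labelled Dab2-cKO, 16 members were above it, 9 of them high-glycine-tyrosine and 7 high-sulfur genes, and no ultra-high-sulfur member was. At equal counts a shorter gene has the higher level per kb. The median exon length was 534 bases in the high-glycine-tyrosine class and 984 in the ultra-high-sulfur class. Members without a count numbered 4, 3 and 4 in these libraries and 0 in each WT library. Where a member was at the background level in these libraries, the size of its fold change depends largely on its WT level. For such members, ranks of fold changes and class medians are a description and do not show which fell further.

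**Figure D3:**
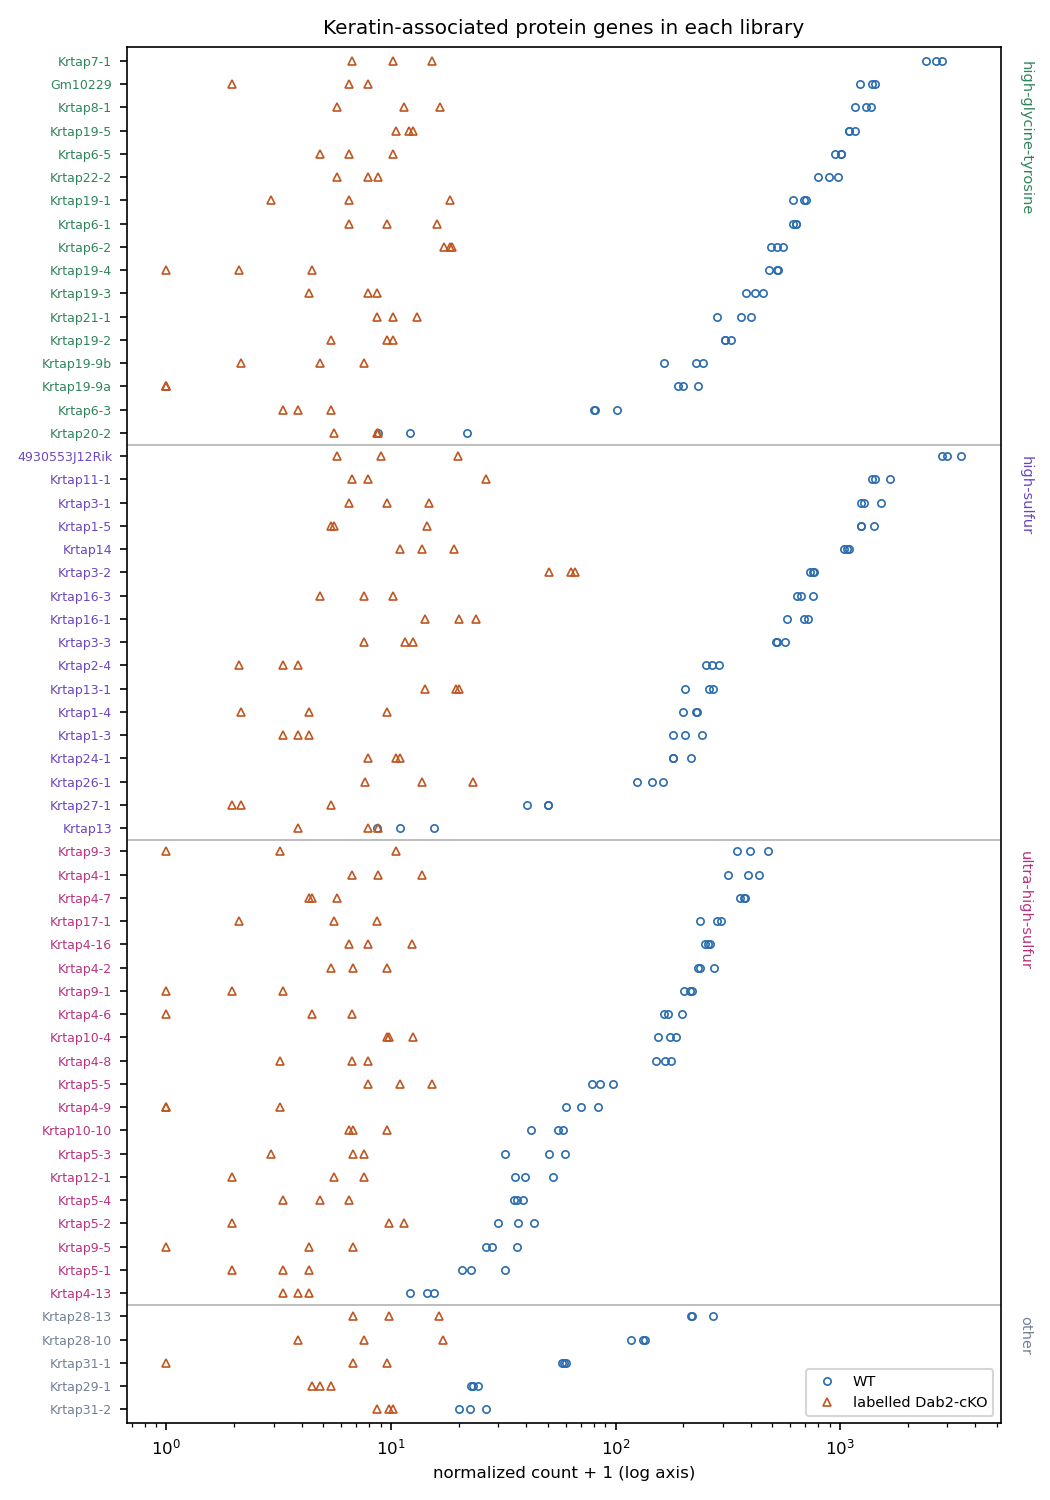
Normalized counts plus 1 (x axis, log scale) of the 59 members (y axis, by class and WT level) in the 3 WT libraries (circles) and the 3 libraries labelled Dab2-cKO (triangles). WT means ran from 10.7 to 3094, while Krtap3-2 at 58.9 had the highest mean among the triangles.

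High-glycine-tyrosine genes took 0.149% ± 0.00405 (SD, n = 3) of all counts in WT and 0.00111% ± 0.000234 (SD, n = 3) in the libraries labelled Dab2-cKO. Of the 17 genes, 16 were tested and called lower, and the median of their log2 fold changes was -6.55, or -6.24 with Krtap19-9a at its bound. The most abundant was Krtap7-1, a structural protein of the cortex, with 2171, 3159 and 3122 counts in WT and 6, 8 and 13 in the other group. Its normalized count was 2646 ± 218 (SD, n = 3) against 9.76 ± 4.34 (SD, n = 3), a log2 fold change of -8.09 (SE 0.14, adjusted p = 3.34e-56 by edgeR). Krtap8-1, the only member of its family in the table, had 1046, 1441 and 1614 counts in WT against 5, 9 and 14. Its normalized count was 1282 ± 109 (SD, n = 3) against 10.2 ± 5.34 (SD, n = 3), with an adjusted p of 1.33e-49 by edgeR.

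Family 6, glycine-rich proteins of the cortex, showed the same separation. Gm10229, which the annotation counts in this family, had 1096, 1541 and 1668 counts in WT and 1, 6 and 5 in the other group, a log2 fold change of -8.26 (SE 0.17, adjusted p = 6.73e-51 by edgeR). Krtap6-5, the most abundant gene that the table names in the family, had 849, 1112 and 1183 counts against 4, 8 and 5. It fell by 7.33 on the log2 scale (SE 0.16). Krtap6-2 kept more of its transcripts, with 471, 619 and 573 counts against 17, 15 and 16, and fell by 4.94 (SE 0.16). The gene listed as Krtap6-3 had the least negative fold change of the class, with 72, 112 and 93 counts against 3, 2 and 4 and a log2 fold change of -4.72 (SE 0.37). In all of these genes the lowest WT library was at least an order of magnitude above the highest library of the other group.

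The 7 genes of family 19 were all called lower. Krtap19-5 was the most abundant, with 986, 1208 and 1369 counts in WT and 10, 10 and 10 in the libraries labelled Dab2-cKO, and fell by 6.70 on the log2 scale (SE 0.14). Krtap19-4 had 432, 585 and 610 counts against 0, 3 and 1, a log2 fold change of -8.37 (SE 0.25, adjusted p = 1.08e-40 by edgeR). The pseudogene Krtap19-9a had 170, 256 and 233 counts in WT and 0 in each of the other libraries, which allows a share of up to 3.2e-05% of the counts in the shallowest of them. Set against a floor of 3 counts per library, it was at least 64.4-fold lower, or -6.01 on the log2 scale. Krtap22-2 was close to family 19 in level, with 713, 1079 and 1044 counts against 5, 6 and 7 and a log2 fold change of -7.09 (SE 0.17).

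High-sulfur genes took 0.150% ± 0.00423 (SD, n = 3) of all counts in WT and 0.00186% ± 4.04e-05 (SD, n = 3) in the libraries labelled Dab2-cKO. Of the 17 genes, 16 were tested and called lower, with a median log2 fold change of -5.97. The most abundant member of all was 4930553J12Rik, with 2545, 3828 and 3502 counts in WT and 5, 7 and 17 in the libraries labelled Dab2-cKO. Its normalized count was 3094 ± 323 (SD, n = 3) against 10.5 ± 7.32 (SD, n = 3), a log2 fold change of -8.22 (SE 0.15, adjusted p = 4.96e-37 by edgeR). An annotated lncRNA that now carries this symbol overlaps 19.1% of its exon bases on the same strand.

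Krtap11-1, a high-sulfur protein of the cortex, had 1239, 1855 and 1676 counts in WT and 6, 6 and 23 in the libraries labelled Dab2-cKO. Replicate 3 stood above the others of its group but far under WT, and the log2 fold change was -6.90 (SE 0.23, adjusted p = 3.57e-11 by edgeR). Krtap3-1 had 1107, 1684 and 1497 counts against 9, 12 and 5 and fell by 7.17 on the log2 scale (SE 0.15). Krtap1-5 had 1109, 1562 and 1445 counts against 14, 4 and 4. Its log2 fold change of -7.35 (SE 0.15, adjusted p = 6.2e-50 by edgeR) was the most negative of the genes that the table itself names in this class. Krtap14, which lies on the other strand within the annotated span of 4930553J12Rik, had 936, 1191 and 1277 counts against 19, 11 and 9 and fell by 6.26 (SE 0.14).

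Krtap3-2 departed from the rest of the family. It had 684, 839 and 856 counts in WT and still 68, 54 and 45 in the libraries labelled Dab2-cKO, the highest value of any member in each of these libraries. Its normalized count was 750 ± 16.4 (SD, n = 3) against 58.9 ± 8.10 (SD, n = 3), and its log2 fold change was -3.66 (SE 0.12, adjusted p = 6.33e-39 by edgeR). The neighbouring Krtap3-3 had 467, 630 and 612 counts against 11, 10 and 6, a log2 fold change of -5.79 (SE 0.18). These genes share sequence, since 25.1% of the 100-base stretches of Krtap3-2 and 36.7% of those of Krtap3-3 occur in the other, and how reads with several positions were counted is not given in the sources used here. The least negative fold change of the class was that of Krtap26-1, with 111, 178 and 170 counts against 7, 11 and 20 and a value of -3.40 (SE 0.25).

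Ultra-high-sulfur genes, which are typical of the cuticle and of the late cortex, were less abundant. They took 0.0377% ± 0.00063 (SD, n = 3) of all counts in WT and 0.000903% ± 6.89e-05 (SD, n = 3) in the libraries labelled Dab2-cKO. All 20 genes were tested and called lower, and the median log2 fold change was -4.55. Krtap9-3 had 311, 526 and 465 counts in WT and 10, 0 and 2 in the libraries labelled Dab2-cKO, a log2 fold change of -6.54 (SE 0.26, adjusted p = 7.72e-25 by edgeR). The most negative fold change of the class was that of Krtap9-1, with 197, 236 and 234 counts against 1, 2 and 0. The ratio of its levels was 198, with an exact counting interval of 67.3 to 961 at the 95% level.

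All 8 genes of family 4 were called lower. Krtap4-1 had 284, 481 and 457 counts against 6, 11 and 7 and fell by 5.47 on the log2 scale (SE 0.21). Krtap4-7 had 322, 418 and 434 counts against 5, 3 and 3 and fell by 6.52 (SE 0.23). Krtap4-16 had 232, 290 and 292 counts against 12, 6 and 5 and fell by 4.96 (SE 0.22). In each of these genes the groups were far apart, and the same was true of Krtap17-1 with 264, 313 and 277 counts against 8, 4 and 1 and a log2 fold change of -5.84 (SE 0.25). Krtap4-13 was near the limit of what these libraries can show, with 13, 15 and 13 counts against 3, 2 and 3. Its log2 fold change was -2.15 (SE 0.66, adjusted p = 0.00838 by edgeR), with an adjusted p of 0.0550 without WT replicate 1, and 62.8% of its 100-base stretches occur in other Krtap genes.

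Family 5, the cuticle genes on chromosome 7, had low levels in both groups. Its median log2 fold change was -3.16 over 5 genes. Krtap5-5, the most abundant, had 70, 93 and 113 counts in WT against 15, 6 and 9 and fell by 3.02 on the log2 scale (SE 0.30). Krtap5-2 had 38, 32 and 42 counts against 1, 9 and 8 and fell by 2.44 (SE 0.45, adjusted p = 7.26e-06 by edgeR).

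The 5 members outside the classes were also called lower. Krtap28-13 had 194, 301 and 256 counts in WT against 16, 5 and 8 and fell by 4.51 on the log2 scale (SE 0.23). Krtap28-10 had 104, 149 and 155 counts against 3, 14 and 6 and fell by 3.94 (SE 0.29). Krtap31-1 had 52, 63 and 69 counts against 9, 5 and 0 and fell by 3.52 (SE 0.41). Krtap29-1 had 21, 24 and 26 counts against 4, 3 and 4 and fell by 2.49 (SE 0.53). The smallest change of any member tested was that of Krtap31-2, with 23, 21 and 25 counts against 8, 8 and 8, and the log2 fold change of Krtap31-2 was -1.35 (SE 0.46, adjusted p = 0.0185 by edgeR). Its groups did not overlap, but its call was lost in 4 of the 13 alternatives that gave a value, with edgeR adjusted p-values of 0.0828 without WT replicate 1, 0.0521 without WT replicate 3, 0.0572 without Dab2-cKO replicate 1 and 0.128 against a 1.5-fold change. It shares 31.2% of its 100-base stretches with Krtap31-1.

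The members lie in 5 clusters of GRCm39, and 58 of them are written in 1 exon. The largest span, of 960 kb on chromosome 16, holds 26 members, all high-glycine-tyrosine or high-sulfur genes, and their share of the member counts was 68.5% ± 0.409 (SD, n = 3) in WT. The cluster of 444 kb on chromosome 11 holds 23 members and gave 28.5% ± 0.425 (SD, n = 3). Clusters on chromosomes 7 and 10 held 5 and 3 members with median log2 fold changes of -3.16 and -3.37, less negative than the -6.33 of chromosome 16, or -6.18 with Krtap19-9a at its bound, and the -5.54 of chromosome 11. The mean WT share per member followed the same order over these chromosomes, and its part in the size of the fold changes was not tested.

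Genes beyond the clusters were changed in some places and not in others. On chromosome 16, the next protein-coding genes tested beyond the last member were Tiam1 at 216 kb, with a log2 fold change of 0.13 (SE 0.07, adjusted p = 0.177 by edgeR), and Sod1 at 649 kb, which rose by 1.24 (SE 0.09). On its other side Cldn8, a claudin of tight junctions 47.5 kb away, fell by 1.48 (SE 0.21), and Cldn17 had a log2 fold change of 0.11 (SE 0.46, adjusted p = 0.905). Around the cluster on chromosome 7, Dusp8 and Ifitm10 were called lower, with log2 fold changes of -0.54 and -0.56, and Ctsd, a lysosomal protease, higher with 0.31. Around that on chromosome 10, Ube2g2, Sumo3, Lrrc3 and Trpm2 were not called, with log2 fold changes between -0.28 and 0.28. Tspear, whose annotated span covers this whole cluster, was not among the flanking genes taken, and its fold change is not given here. Chromosome 11 differed, since its cluster lies inside the type I keratin locus. The hair keratin genes Krt40 and Krt39 on one side had log2 fold changes of -3.97 and -3.89, and Krt33a and Krt33b on the other had -6.93 and -7.22.

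**Figure D4:**
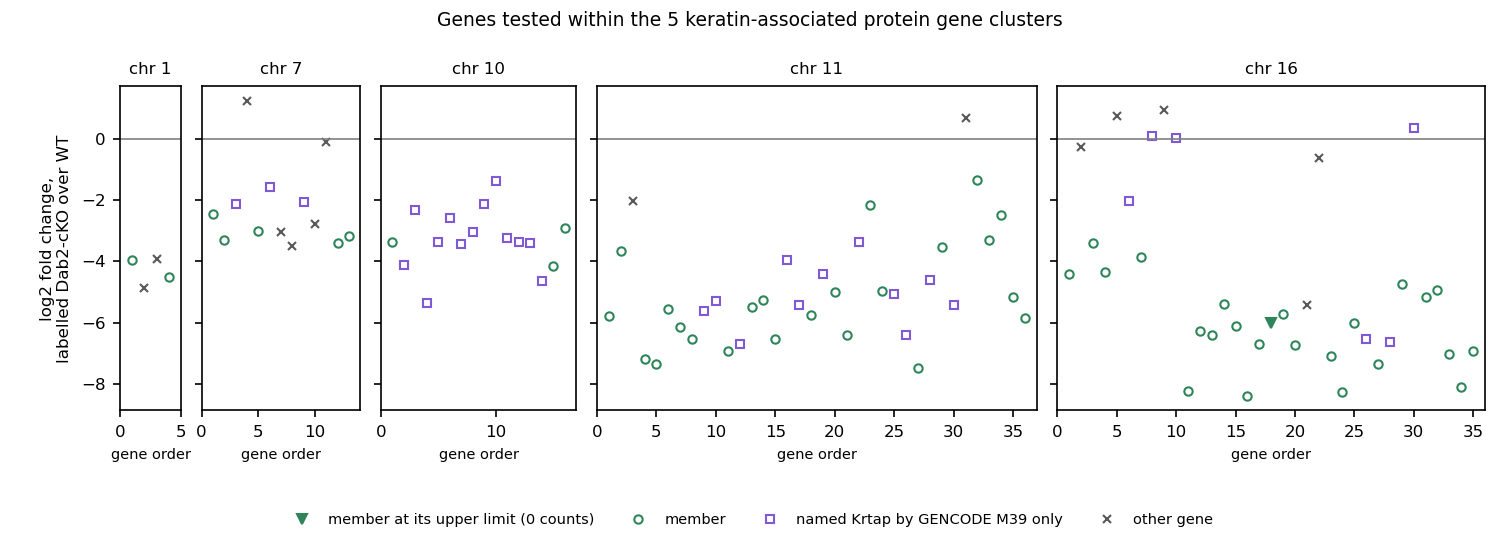
Log2 fold changes of libraries labelled Dab2-cKO over WT (y axis) of the genes tested within each cluster, in their order along the chromosome (x axis). Circles are members, squares are genes that GENCODE M39 alone names Krtap, crosses are other genes, and the triangle is Krtap19-9a at its limit of -6.01; the members tested all lie under -1.

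The 250 bases before the start of the canonical transcript were compared between the members and 21667 protein-coding genes in the table, because the members moved in 1 direction. The letters TATAAA were present on either strand in 48 of 59 member windows (81.4%) and in 11.9% of all windows. Within 40 bases of the start and on the gene's own strand, TATAAA was present in 32 members (54.2%) and in 2.79% of all genes, and its distance from the start had a median of 31 bases. Letters of the site known for HOXC13, a homeobox factor of the hair matrix and cortex (TTTATNA or, with A in place of the T before its AT, TTAATNA, the last base being A or G, on either strand), were present in 69.5% of the member windows and in 29.2% of all windows. Letters of the LEF1 and TCF site (CTTTGA, or the same letters ending in T) were present in 45.8% and 27.2%, and those of the FOXN1 core (GACGC) in 5.08% and 23.8%. The member windows had a median GC content of 40.4%, against 53.2% over all windows, which bears on every one of these shares. The HOXC13 letters can overlap a TATAAA read on the other strand.

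Windows of 4 members are shown with TATAAA and the HOXC13 letters in capitals, for abundant high-sulfur and ultra-high-sulfur genes and for Krtap31-2, the least changed. They lie in GRCm39 at chr16:88625632-88625881 (+) for 4930553J12Rik, chr16:89368072-89368321 (-) for Krtap11-1, chr11:99488932-99489181 (-) for Krtap9-3 and chr11:99826867-99827116 (+) for Krtap31-2, and each is written along the gene's own strand. The window of 4930553J12Rik precedes its canonical transcript and lies inside the annotated gene, since another transcript starts further upstream.
4930553J12Rik: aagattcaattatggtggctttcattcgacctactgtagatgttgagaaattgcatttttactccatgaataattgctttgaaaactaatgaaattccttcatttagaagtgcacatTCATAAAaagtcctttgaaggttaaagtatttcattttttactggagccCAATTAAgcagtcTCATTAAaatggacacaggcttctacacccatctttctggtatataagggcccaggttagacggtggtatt
Krtap11-1: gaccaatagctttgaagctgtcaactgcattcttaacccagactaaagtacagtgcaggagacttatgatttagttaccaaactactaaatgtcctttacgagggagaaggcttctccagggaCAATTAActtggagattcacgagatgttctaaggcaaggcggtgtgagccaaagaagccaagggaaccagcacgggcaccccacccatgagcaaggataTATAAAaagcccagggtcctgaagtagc
Krtap9-3: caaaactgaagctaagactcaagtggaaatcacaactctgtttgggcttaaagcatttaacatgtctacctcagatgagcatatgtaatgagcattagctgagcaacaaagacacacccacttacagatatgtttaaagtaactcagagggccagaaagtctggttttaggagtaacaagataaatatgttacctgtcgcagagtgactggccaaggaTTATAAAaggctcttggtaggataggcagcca
Krtap31-2: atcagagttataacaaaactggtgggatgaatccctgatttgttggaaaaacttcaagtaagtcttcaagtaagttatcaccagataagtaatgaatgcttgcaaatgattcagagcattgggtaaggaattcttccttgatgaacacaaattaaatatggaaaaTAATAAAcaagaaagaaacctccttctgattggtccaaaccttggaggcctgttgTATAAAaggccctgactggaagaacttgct
TATAAA began 30 bases before the start of Krtap31-2, 28 bases before that of Krtap11-1 and 31 bases before that of Krtap9-3. No TATAAA was in the window of 4930553J12Rik, which holds the letters TATATAA near its end, and the search took exact letters only. Whether the place of TATAAA bears on the fold change was not tested.

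Hair keratins, the filament proteins that the KAPs crosslink, fell with the members. All 15 hair keratins of the list in the table were called lower, with a median log2 fold change of -6.71. Krt83 had 7095, 10654 and 10307 counts in WT against 45, 34 and 42 in the libraries labelled Dab2-cKO and fell by 7.67 (SE 0.11). Krt87 had 4996, 7519 and 7416 counts against 45, 39 and 43 and fell by 7.11 (SE 0.11). Krt81 had 4537, 6768 and 6641 counts against 33, 33 and 36 and fell by 7.27 (SE 0.11). For every 100 counts on hair keratins there were 66.2, 63.3 and 62.8 counts on members in WT. No such proportion is read from the libraries labelled Dab2-cKO, where most members were at the level per kb of the receptor genes.

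Factors known to act in the making of the hair shaft were lower as well. All 14 genes of the list were called lower, with a median log2 fold change of -1.63, and at a threshold of 1.5-fold the call held for 11. Msx2 and Dlx3, homeobox factors of the matrix, had log2 fold changes of -4.22 (SE 0.13) and -4.21 (SE 0.09). Hoxc13 had 477, 688 and 675 counts in WT against 43, 25 and 30 and fell by 4.05 (SE 0.14). Foxn1, the nude gene, fell by 3.08 (SE 0.13), and Lef1, a factor of the Wnt pathway, fell by 3.09 (SE 0.10). Cux1, Vdr, Ovol1, Foxq1 and Prdm1 had log2 fold changes of -2.25, -1.74, -1.52, -1.27 and -1.14. The values were -0.88 for Notch1 and -0.64 for Bmpr1a, both receptors, -0.72 for Gata3, a factor of the inner root sheath, and -0.34 for Hr, the hairless corepressor. Bmpr1a, Gata3 and Hr were the genes whose call was lost against a 1.5-fold change.

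**Figure D5:**
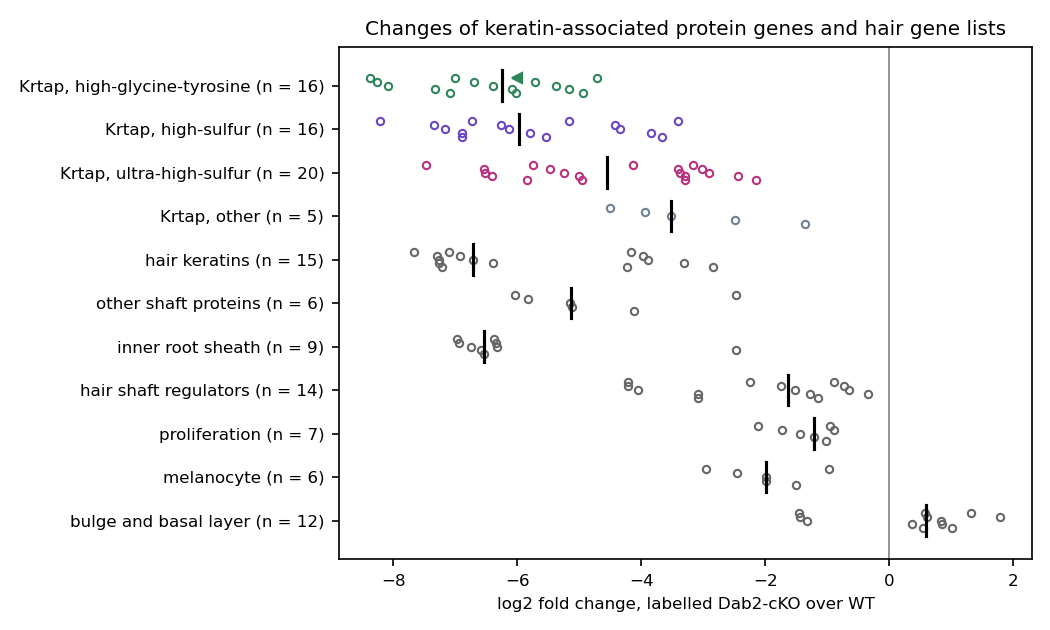
Log2 fold changes of libraries labelled Dab2-cKO over WT (x axis) for the members tested, by class, and for lists of related genes (y axis), with a vertical bar at each median. Medians were -6.24, -5.97, -4.55 and -3.52 for the member classes with Krtap19-9a (filled triangle) at its limit, -6.71 for hair keratins, -1.63 for hair shaft regulators and 0.60 for the bulge and basal layer.

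Markers of other cell types moved with the members. The 9 inner root sheath genes were called lower, and they took 2.87 to 3.16% of all counts in WT and 0.0207 to 0.0220% in the libraries labelled Dab2-cKO. The 6 other proteins of the hardening shaft, such as Padi3, which citrullinates shaft proteins, were called lower with a median of -5.13. The 6 melanocyte genes took 0.0414 to 0.0420% in WT and 0.00985 to 0.0103% in the other group, and the 7 proliferation genes took 0.123 to 0.124% and 0.0255 to 0.0265%. In the opposite direction, 7 fibroblast genes, of which Corin was lower, took 1.30 to 1.44% in WT and 3.17 to 3.46% in the libraries labelled Dab2-cKO, 4 endothelial genes 0.0105 to 0.0115% and 0.0289 to 0.0304%, and 6 immune genes, of which Cd3e was not called, 0.00996 to 0.0108% and 0.0321 to 0.0360%. Of 5 suprabasal epidermal genes, Krt1, Krt10, Krtdap and Flg were higher, with log2 fold changes of 2.99, 2.37, 1.65 and 0.85, and Ivl was lower with -0.96, and together they took 0.115 to 0.121% in WT and 0.329 to 0.341% in the other group. Of the 12 bulge and basal genes, 8 were higher, 3 were lower (Lgr5, Lhx2 and Sox9) and Fgf18 was not called. No marker of these lists was at 0 in any library, and the part of these shifts in the fall of the members was not tested.

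The further 54 genes that only GENCODE M39 names Krtap were chosen after the data were seen. Of these, 44 passed the filter and 40 were called lower, against 11.5% of all genes tested, and none was called higher by edgeR, where the smallest adjusted p with a fold change above 0 was 0.733. All 40 passed the filter through the WT libraries alone, which favours a call of lower, so that their count is a description. The 54 genes took 0.0563 to 0.0595% of all counts in WT and 0.00274 to 0.00341% in the libraries labelled Dab2-cKO. The most abundant was 1110025L11Rik, named Krtap6-6, with a normalized count of 534 against 5.18 and a log2 fold change of -6.62 (adjusted p = 2.92e-40 by edgeR). Those not called were Gm7137 (Krtap10-25), 2310034C09Rik (Krtap13-20), ENSMUSG00000116636 (Krtap13-24) and 1110057P08Rik (Krtap20-24), with log2 fold changes of -1.38, 0.09, 0.02 and 0.33. All 4 had a WT mean under 17 normalized counts, where the members Krtap13 and Krtap20-2 also lay.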

How the data were processed

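Total RNA of sorted HFSCs was sequenced for 3 WT and 3 Dab2-cKO mice. The authors trimmed the reads with fastp 0.23.4, aligned them to GRCm39 with HISAT2 2.2.1 and counted them per gene with featureCounts 2.0.6, and the deposited values are raw counts without normalization. Strand, multi-mapping and annotation settings are not given in the sources used here. The authors' own DESeq2 comparison, with its fold changes and p-values, was not used.

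Genes were filtered by edgeR 4.0.16 (R 4.3.3, default filter), TMM-scaled and compared by its robust quasi-likelihood test over 32149 genes, with Benjamini-Hochberg adjustment and a threshold of 0.05. SEs were derived from the fold change and the F statistic. Normalized counts are scaled to the mean effective library size, 9377113. GENCODE M39 matched 56323 of 56941 gene IDs, and sequences were read from GRCm39. The test was checked on simulated counts.

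Members and lists were chosen with earlier results of these data known. Named by rule are, per class, the 5 most abundant genes and the 2 with the most and the 2 with the least negative fold change, the most abundant gene of each family of 3 or more, every untested member, both added genes, Dab2, 3 hair keratins and the regulators. Classes follow the current names. Neighbours were chosen by position, Krtap3-3 after its values were seen. DESeq2 1.42.0, other scalings, filters, a replicate block and leaving out each library were alternatives. Replicates of a genotype differed by more than sampling noise (chi-square per degree of freedom 3.29 to 9.66). The upstream sequence of 1 member is not reported here.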

Additional observations from a re-analysis of the deposited data

How the results depend on the processing

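The call of lower held for 55 to 57 members when a library was left out and for 54 by DESeq2 (54 with a value). It held for 43 at a mean count of at least 50 (43 tested) and for 56 against a 1.5-fold change. No member was called higher under any alternative. The library size alone moved the median log2 fold change of all genes from -0.02 to -0.45 (11168 genes lower and 2686 higher, against 3682 and 5387). Upper-quartile scaling moved it to -0.17 (5561 and 4281). The members' median moved in the same direction, from -5.47 to -5.89 and -5.61. The 15 hair keratins were called lower under every alternative, and the regulators under all but the 1.5-fold test (11). For the further Krtap genes the count was 40 to 44 when a library was left out and 16 at a mean count of at least 50, where fewer genes were tested. The WT share of 0.343% became 0.413% without mitochondrial and rRNA genes and 0.299% of the effective library size, and the share of 0.00419% in the libraries labelled Dab2-cKO became 0.00554% and 0.00490%. Leaving out a library kept these shares within 0.340 to 0.346% in WT and 0.00403 to 0.00433% in the other group. Against a 1.5-fold change, 1136 genes were lower and 2222 higher. The cause of the shifts was not tested. Low counts kept Krtap13 and Krtap20-2 out of the test, and without a filter neither was called. The alternatives for the further Krtap genes were added after seeing the data.

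The labels do not say whether the replicate numbers pair the samples. Deviations of same-numbered libraries correlated at 0.0231, 0.0117 and 0.00759, and those of differently numbered libraries at -0.0177 to 0.00546. With the replicate block, 57 members were called lower, and the counts of hair keratins (15), regulators (14) and further Krtap genes (40) were the same.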

Other observations

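Genes with the composition of a keratin-associated protein but without the name lie beside the members. Among 53 protein-coding genes within 150 kb of a member that neither source names Krtap, 13 had at least 25% cysteine codons, a limit set on sequence alone but after other results were known. Of these, 10 were tested and 10 were called lower by edgeR, against 11.5% of all genes tested, with log2 fold changes from -4.87 to -2.66. All 10 passed the filter on low counts through the WT libraries alone, which favours a call of lower, so that their count is a description. A group of 9 lies on chromosome 1 near Krtap28-10 and Krtap28-13, each with 41 to 44.5% cysteine codons, and all 9 were called lower.

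The highest of them in WT was Gm47969 (GRCm39 chr1:83022653-83023667), which lies between these members. It had 180, 263 and 334 counts in WT and 9, 6 and 8 in the libraries labelled Dab2-cKO, a log2 fold change of -4.87 (SE 0.23, adjusted p = 3.71e-29 by edgeR). Gm47959 had 169, 194 and 214 counts against 8, 8 and 5 and fell by 4.59 on the log2 scale (SE 0.25). On chromosome 7, Gm4553, 8.8 kb from the cluster of family 5, had 55, 66 and 65 counts against 10, 8 and 8 and fell by 2.66 (SE 0.33). Slc19a3, a thiamine transporter gene 2.69 kb from Krtap28-10 with 2.05% cysteine codons, had a log2 fold change of 0.09 (SE 0.27, adjusted p = 0.867). Whether these genes encode KAPs was not tested.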
